A study of Capra hircus with 12 samples.

Results

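The miRNAs described here are those encoded within the HOX gene clusters of the goat. They were chosen by name alone, as every miRNA listed as miR-10a, miR-10b, miR-196a, miR-196b or miR-615 with either arm, and 5 of the 376 miRNAs listed were found. These were chi-miR-10b-5p, chi-miR-10b-3p, chi-miR-10a-5p, chi-miR-10a-3p and chi-miR-196a, and all 5 passed the filter on low counts, as 300 of the 376 did. The rule found no name for miR-196b or miR-615, which were not analysed here.

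HOX genes are transcription factors that give cells along the body axis their positional identity, and skin keeps regional patterns of HOX expression in the adult. The miR-10 and miR-196 genes lie between HOX genes, are conserved with them, and can repress HOX transcripts. A miRNA precursor yields a 5p and a 3p arm. For miR-10a and miR-10b the 5p arm is the one usually loaded as the guide, and the 3p arm is usually the less stable partner. In RefSeq's goat annotation (assembly ARS1.2, which is not the assembly used by the authors) MIR10A on chromosome 19 had HOXB5 and HOXB3 as its nearest coding genes, MIR10B on chromosome 2 had HOXD8 and HOXD3, and MIR196A on chromosome 19 had HOXB13 and HOXB9.

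The libraries were small RNA libraries of secondary hair follicles (SHFs), the follicles that grow cashmere, dissected under a microscope from scapular skin of Liaoning cashmere goats aged 1.5 years. The labels name no treatment or genetic change for any group, and the groups differ by calendar month and sex. February and March stood for telogen, the resting phase (4 libraries), May for early anagen and September for mid-anagen, the growth phase (2 libraries each), and November and December for catagen, the regressing phase (4 libraries), with 1 female and 1 male library in each of the 6 months. The methods name 3 female and 3 male goats per time point without saying how they were combined, so p-values measure the spread between libraries, and phase cannot be told apart from calendar month.

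Total miRNA counts ran from 3135292 to 5788032 per library. The deposited TPM is the miRNA count scaled to a common library total, with no length term. Among markers of cell types that dissected follicles can hold, 6 of 7 epithelial miRNAs were listed, with a summed TPM of 56735 to 96687. Most of this sum was miR-203, with a mean of 63230 of 76203 TPM. Of the markers taken as mesenchymal, 7 of 7 were listed, with 117674 to 147963. Most of the latter sum was miR-143-3p, with a mean of 89983 of 133584 TPM. By in situ hybridization the authors located this miRNA in cells of the hair matrix, which they describe as progeny of follicle stem cells. The mesenchymal sum can therefore not be read as mesenchymal content. Muscle markers (4 of 4 listed) summed to 1805 to 3544 TPM, endothelial ones (2 of 2) to 8819 to 12699, leukocyte ones (3 of 5) to 387 to 650, and erythrocyte ones (2 of 6) to 5.41 to 115. Since these are bulk samples, fewer cells of a type and less RNA per cell cannot be told apart.

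MiR-10b-5p was the most abundant, with 19502 ± 2803 TPM (SD, n = 12), and it ranked between 11 and 14 among the miRNAs of each library. MiR-10a-5p had 3603 ± 665 TPM and ranked between 25 and 39. Together both 5p arms made up 1.86 to 2.95% of all miRNA counts. The 3p arms were far below them, at 37.8 ± 11.3 TPM for miR-10b-3p and 23.8 ± 8.86 TPM for miR-10a-3p, and miR-196a was the least abundant with 12.1 ± 2.71 TPM. This order held within each of the 12 libraries, whereas the ranges of neighbouring miRNAs over all libraries overlapped for miR-10b-3p (22.6 to 55.2 TPM) and miR-10a-3p (11.1 to 41.5 TPM), and for miR-10a-3p and miR-196a (9.12 to 17.6 TPM). The ranges of both 5p arms overlapped neither each other nor those of the other members. MiR-196a rested on 42 to 90 counts per library and miR-10a-3p on 55 to 160, and for the male library of September the 95% Wilson interval of the share of miR-196a was 0.00143 to 0.00216%. Such intervals cover counting error only.

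**Figure D1:**
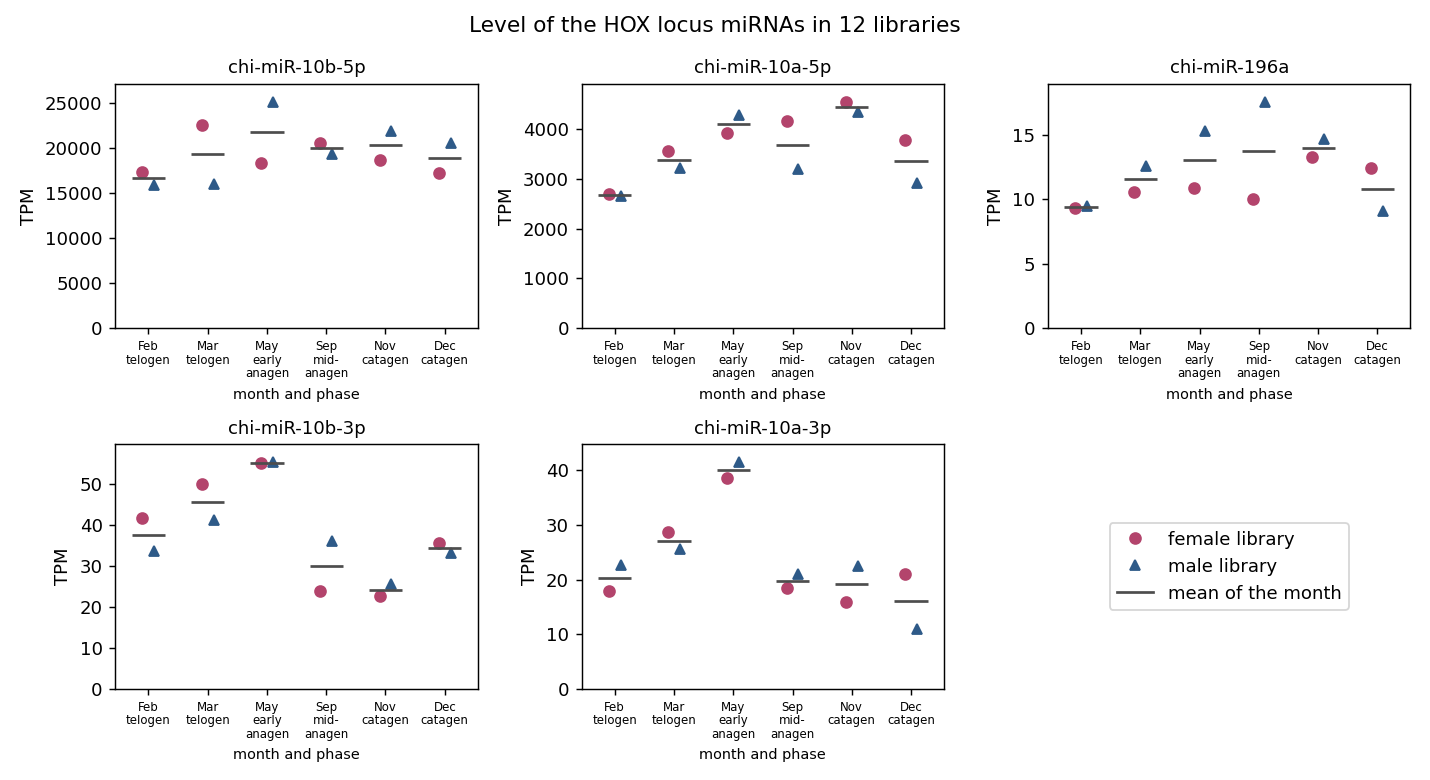
Deposited TPM (y axis, linear from 0) of the 5 HOX locus miRNAs by month and phase (x axis), with 1 female and 1 male library per month and a line at the mean of each month. The May libraries had the highest TPM of both 3p arms, 55.1 and 55.2 for miR-10b-3p and 38.7 and 41.5 for miR-10a-3p, while miR-10b-5p ranged from 15950 to 25173 TPM over all libraries.

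MiR-10b-5p is the more abundant arm of miR-10b, whose gene lies between HOXD genes. It had 17372 and 15950 TPM in the female and male libraries of February, and 22639 and 16056 in those of March. In May it had 18361 (female) and 25173 (male) TPM, and in September 20638 and 19390. The November libraries had 18742 and 21897 TPM and the December libraries 17207 and 20604. The female library of March lay among the highest and the male library of March among the lowest, and the TPM of all 4 phases overlapped.

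MiR-10a-5p is the more abundant arm of miR-10a, whose gene lies between HOXB genes. The telogen libraries had 2693 (female) and 2654 (male) TPM of miR-10a-5p in February and 3549 and 3212 in March. Values were 3914 and 4274 TPM in May and 4159 and 3189 in September. Catagen libraries had 4548 and 4345 TPM in November and 3782 and 2916 in December. Both February libraries were the lowest of the 12 and both November libraries the highest, and telogen and catagen overlapped through the male library of December.

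The low-abundance arms followed the months differently. MiR-10b-3p had 41.6 and 33.6 TPM in February, 49.9 and 41.1 in March, 55.1 and 55.2 in May, 23.9 and 36.2 in September, 22.6 and 25.5 in November, and 35.6 and 33.2 in December (female, then male). MiR-10a-3p had 18.0 and 22.8 TPM in February, 28.7 and 25.6 in March, 38.7 and 41.5 in May, 18.5 and 21.1 in September, 15.9 and 22.4 in November, and 21.1 and 11.1 in December. On the TPM scale both May libraries were above all other 10 for each 3p arm, as was the case for 21.3% of the 300 miRNAs tested. On TMM-normalized CPM, which corrects for the composition of the libraries, miR-10a-3p in May (31.0 and 32.2) was still above the highest of the other phases (27.6), as for 9.67% of the miRNAs tested, but miR-10b-3p in May (42.9 to 44.1) fell within the range of telogen (29.3 to 47.9).

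MiR-196a, which targets HOX transcripts and marks posterior positions, had 9.33 and 9.46 TPM in February, 10.6 and 12.6 in March, 10.9 and 15.3 in May, 10 and 17.6 in September, 13.3 and 14.7 in November, and 12.5 and 9.12 in December (female, then male). The male library of September was the highest, and on the TPM scale every pair of phases overlapped. On TMM-normalized CPM telogen (8.27 to 10.2) lay below September (11.8 to 19.3) and catagen (10.5 to 17.3). The separation from catagen was narrow, with 10.2 in the male library of March (52 counts) and 10.5 in that of December (47 counts). The share of all miRNAs with such a separation was not computed.

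The first comparison asked whether these miRNAs differ between phases of the hair cycle. A miRNA was called with edgeR's quasi-likelihood test when its Benjamini-Hochberg adjusted p was under 0.05 and its change at least 2-fold. None of the 5 members was called in any of the 6 comparisons, and DESeq2 also called 0. The share of all 300 tested miRNAs called was 2.33% from telogen to May, 18.3% from May to September, 0% from September to catagen, 10.7% from catagen to telogen, 9.33% from telogen to September and 16.7% from May to catagen. At an unadjusted p under 0.05 and no fold limit, 88, 130, 23, 142, 125 and 150 of all miRNAs passed in these comparisons, and from September to catagen DESeq2 called 1. The members' median log2 fold change was 0.19, 0.38, 0.00, -0.47, 0.47 and 0.42 in the same order, where the medians of all miRNAs lay between 0.00 and 0.08. The median absolute log2 fold change of all miRNAs was 0.34, 0.54, 0.19, 0.47, 0.50 and 0.56. In size the members' medians were thus at most about as large as the change of a typical miRNA.

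The transition from catagen to telogen gave the lowest adjusted p of any member. MiR-10a-5p fell by 0.73 on the log2 scale (SE 0.18, 1.65-fold lower in telogen, adjusted p = 0.00755), which passed the p but not the fold limit. For miR-10b-5p the log2 fold change was -0.47 (SE 0.17, 1.39-fold, adjusted p = 0.045). With no fold limit, 35% of all miRNAs passed in this comparison, so that 2 of 5 members is near the background. The p of miR-10a-5p stayed between 0.00464 and 0.0285 when each library was left out in turn, and reached 0.0797 (log2 fold change -0.36) when libraries were scaled by their totals. That of miR-10b-5p was 0.05 or above in 8 of 12 such fits (range 0.019 to 0.123), 0.113 with DESeq2, and 0.483 with library totals (log2 fold change -0.12). MiR-196a had -0.60 (SE 0.23, adjusted p = 0.0576), and the 3p arms had 0.17 (miR-10b-3p, adjusted p = 0.505) and 0.08 (miR-10a-3p, adjusted p = 0.79). The summed erythrocyte markers were at 27.9 to 115 TPM in telogen and 5.41 to 26.4 in catagen, narrowly without overlap on this scale. No TMM factor was applied to these sums, and their part in these differences was not tested.

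From telogen to September, the growth phase, miR-10a-5p had a log2 fold change of 0.61 (SE 0.21, adjusted p = 0.0502) and miR-196a one of 0.71 (SE 0.27, adjusted p = 0.0677). MiR-10b-5p had 0.47 (SE 0.20, adjusted p = 0.0982). None of these passed. The adjusted p of miR-10a-5p ranged from 0.0351 to 0.28 over the other settings, with the highest value under library totals. Its log2 fold change ran from 0.34 (adjusted p = 0.44) without the female library of September to 0.83 (adjusted p = 0.0456) without the male one, and that of miR-196a from 0.31 (adjusted p = 0.505) without the male library to 1.02 (adjusted p = 0.0794) without the female one.

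Comparisons with May depended on the scaling for the members as for other miRNAs. From May to September miR-10a-3p had a log2 fold change of -0.49 (SE 0.31, adjusted p = 0.245) with TMM and -1.02 (adjusted p = 0.027) with library totals, and from May to catagen -0.63 (SE 0.26, adjusted p = 0.077) and -1.19 (adjusted p = 0.0042). With totals it was thus called in both. MiR-10b-3p had -0.36 (SE 0.27, adjusted p = 0.334) from May to September and -0.36 (SE 0.24, adjusted p = 0.234) to catagen with TMM, and -0.88 (adjusted p = 0.0289) and -0.91 (adjusted p = 0.00853) with totals, below 2-fold. The 5p arms kept neither sign, at 0.41 (miR-10b-5p) and 0.38 (miR-10a-5p) from May to September with TMM and -0.12 and -0.16 with totals. TMM factors of May were 1.25 and 1.29 against 0.848 and 0.912 in September, and the median of all miRNAs from May to September moved from 0.07 to -0.46 with totals. It moved from 0.08 to -0.47 from May to catagen, from 0.02 to -0.29 from telogen to September and from 0.00 to 0.35 from catagen to telogen. The called miRNAs split as 29 higher and 26 lower with TMM and as 9 and 71 with totals from May to September, and as 27 and 23 against 10 and 72 from May to catagen. From catagen to telogen the split was 19 and 13 against 43 and 5, and from telogen to September 14 and 14 against 4 and 38. On the TPM scale, marker sums separated May from September without overlap for epithelium (81375 to 88411 against 56735 to 72600 TPM) and muscle (2020 to 2665 against 3336 to 3410). The epithelial sum was mostly miR-203, and the paper reports another of its members, miR-200a, as higher in September than in May. It can therefore not be read as epithelial content. The mesenchymal sum, made up mostly of miR-143-3p and so not specific to mesenchyme, separated narrowly (135198 to 139692 against 139988 to 140532). No TMM factor was applied to these sums, so their separation can depend on the scaling as well. Their part in the differences of the members was not tested.

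From telogen to May, the onset of growth, miR-10a-3p had the largest change of the members, 0.55 (SE 0.26, adjusted p = 0.18), and the other members lay between 0.05 and 0.23. From September to catagen the log2 fold changes of all 5 lay between -0.14 and 0.12, with adjusted p of at least 0.92.

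**Figure D2:**
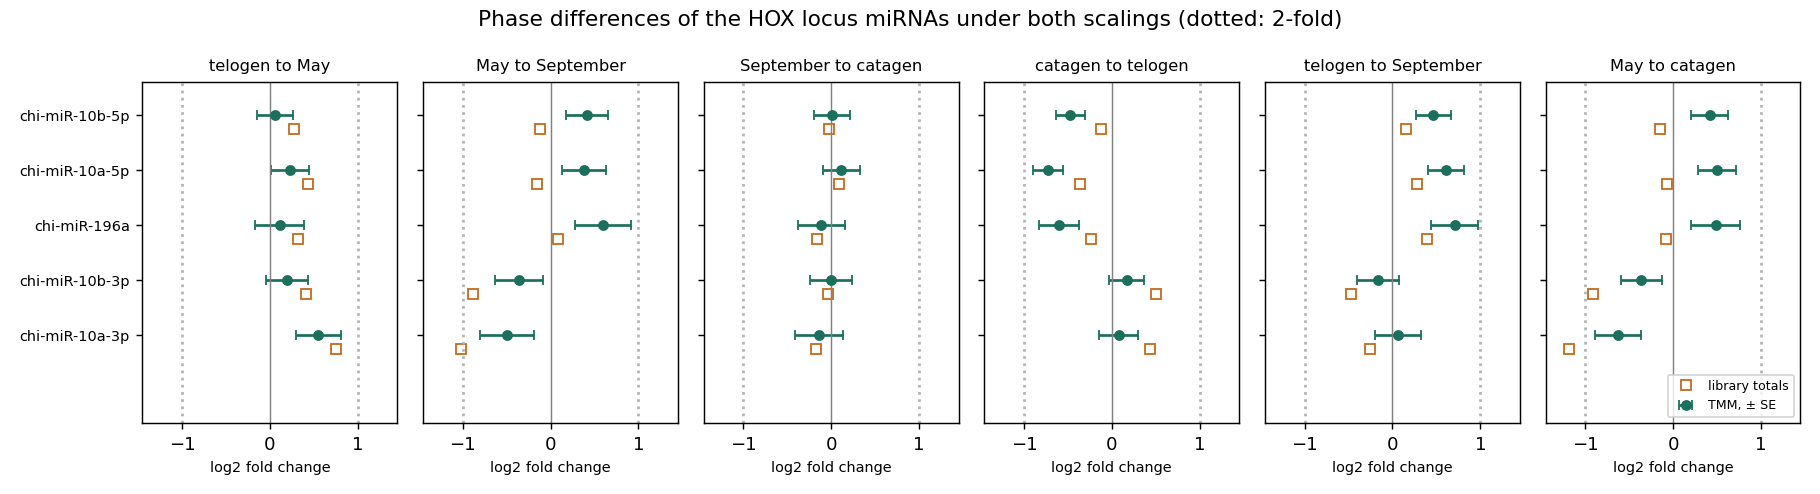
Log2 fold change (x axis) of the 5 HOX locus miRNAs (rows) in the 6 phase comparisons (panels), with TMM (filled circles, bars ± SE) and with library totals (open squares), and dotted lines at 2-fold. With TMM every value lies within 2-fold; with totals miR-10a-3p reaches -1.02 from May to September and -1.19 from May to catagen, and both 5p arms change sign in these panels.

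A test over the 6 months, with no fold limit, asked whether a member varied at all through the year. Of the 5, only miR-10a-5p passed with edgeR's F test (adjusted p = 0.0195), where 31.7% of all 300 miRNAs did. The adjusted p was 0.217 for miR-10b-5p, 0.481 for miR-10b-3p, 0.282 for miR-10a-3p and 0.136 for miR-196a. For miR-10a-5p DESeq2 gave an adjusted p of 0.00123, but with library totals it was 0.0654, and miR-10b-3p passed in its place (adjusted p = 0.0363). Over all 12 libraries the SD of log2 TMM-normalized CPM was 0.33 for miR-10b-5p, 0.40 for miR-10a-5p, 0.27 for miR-10b-3p, 0.36 for miR-10a-3p and 0.39 for miR-196a, each below the median of 0.43 over all miRNAs tested. Among the 58 miRNAs with a mean of over 1000 TPM, whose median SD was 0.35, miR-10a-5p ranked 21 and miR-10b-5p 31 from the most variable.

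The arms of a precursor can be compared within a library, and this ratio does not depend on how libraries are scaled. It can depend on how reads were assigned, since the 5p arms of miR-10a and miR-10b are nearly identical in sequence. The rule for reads that match both is not given, and its part in the arm ratios was not tested. For miR-10a the libraries of May held 9.88 (female) and 9.70 (male) 3p counts per 1000 5p counts, and those of September 4.45 and 6.62. Telogen libraries held 6.67 and 8.57 (February) and 8.08 and 7.98 (March), and catagen libraries 3.50 and 5.16 (November) and 5.58 and 3.79 (December). May lay above telogen, and telogen above every library of September and catagen, with no overlap between these sets, although the lowest telogen value (6.67) was close to the highest of September (6.62). Of the 87 precursors with both arms tested, 6.9% were ordered in this way or its reverse without overlap, and telogen and catagen alone did not overlap in 36.8%. For miR-10b the values were 3.00 and 2.19 in May, 1.16 and 1.86 in September, 2.40 and 2.10 in February, 2.20 and 2.56 in March, 1.20 and 1.16 in November and 2.07 and 1.61 in December. Here too every library of telogen and May exceeded every library of September and catagen, although the lowest telogen value (2.10) was close to the highest catagen value (2.07). Such a separation of telogen and May from September and catagen, in either direction, was present in 24.1% of precursors, miR-10a among them.

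The ratio was tested with limma over the 87 precursors that had both arms, on log2 of the 3p count over the 5p count after adding 1 to both. The 3p to 5p ratio of miR-10a rose from catagen to telogen by 0.81 on the log2 scale (SE 0.22, 1.75-fold, adjusted p = 0.0087), and fell from May to catagen by 1.14 (SE 0.27, 2.20-fold, adjusted p = 0.00229). Both kept an adjusted p under 0.05 with each library left out in turn (at most 0.0375 and 0.0267). For all precursors 49.4% were called from catagen to telogen and 41.4% from May to catagen, so a change of the ratio was common. The calls over all precursors were 16 higher and 27 lower from catagen to telogen, and 22 higher and 14 lower from May to catagen, so that in both comparisons miR-10a moved in the less frequent direction. The related miR-99a moved that way as well, as given below.

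The ratio of miR-10b moved the same way as that of miR-10a in both comparisons, by 0.65 from catagen to telogen (SE 0.24, adjusted p = 0.0333) and by -0.80 from May to catagen (SE 0.29, adjusted p = 0.034). With 1 library left out the direction held in every fit but the adjusted p did not always stay under 0.05. From catagen to telogen it was above 0.05 without the female (log2 change 0.55, adjusted p = 0.0993) or male (0.54, adjusted p = 0.0959) library of November, the female library of February (0.63, adjusted p = 0.0585), or the female (0.67, adjusted p = 0.0552) or male (0.60, adjusted p = 0.0713) library of March. From May to catagen it was so without the female (-0.57, adjusted p = 0.281) or male (-1.02, adjusted p = 0.0528) library of May, or the female (-0.70, adjusted p = 0.0853) or male (-0.69, adjusted p = 0.0875) library of November.

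From May to September the ratio of miR-10a fell by 0.85 (SE 0.32, 1.80-fold, adjusted p = 0.0388), where 37.9% of precursors were called, 23 higher and 10 lower. The adjusted p was above 0.05 with little change in size without the female (-0.83, adjusted p = 0.137) or male (-0.86, adjusted p = 0.122) library of May or the male library of December (-0.85, adjusted p = 0.0507), and with a smaller change without the female library of September (-0.56, adjusted p = 0.307). The marker sums that separate May from September on the TPM scale also apply here, and their part was not tested. MiR-10b had -0.80 (SE 0.34, adjusted p = 0.0665), and passed under both other settings of the count limits (adjusted p = 0.0485 with 5 added to each arm, and 0.0177 for precursors with a mean count of at least 100 in each arm). From telogen to September the changes were -0.52 (SE 0.27, adjusted p = 0.131) for miR-10a and -0.65 (SE 0.29, adjusted p = 0.086) for miR-10b, where 39.1% of precursors were called. That of miR-10a was -0.24 without the female and -0.81 without the male library of September (adjusted p = 0.677 and 0.0791), and that of miR-10b -0.31 and -0.99 (adjusted p = 0.587 and 0.0447). From telogen to May they were 0.33 (adjusted p = 0.437) and 0.15 (adjusted p = 0.758), with 11.5% called, and from September to catagen -0.29 (adjusted p = 0.95) and 0.00 (adjusted p = 0.997), with 0% called (5 of 87 at an unadjusted p under 0.05; no other tool was run on the ratio).

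The miR-99 and miR-100 miRNAs, which are related to miR-10 in sequence but lie outside the HOX clusters, served as the nearest comparison. Of 6 arms in the list 5 were listed and tested. With edgeR, 1 was called higher and 1 lower both from May to September and from telogen to September, and 1 higher from May to catagen. MiR-99a-3p was the lower one (-1.10, SE 0.21, adjusted p = 0.00241 from May to September) and miR-99b-3p the higher one (1.60, SE 0.38, adjusted p = 0.00749). Their arm ratios thus went opposite ways, by -1.82 for miR-99a (SE 0.34, adjusted p = 0.000415) and 1.10 for miR-99b (SE 0.32, adjusted p = 0.00825) from May to September. The ratio of miR-99a fell together with that of miR-10a. It also moved the same way as miR-10a from catagen to telogen (0.61, SE 0.24, adjusted p = 0.0434) and from May to catagen (-1.42, SE 0.30, adjusted p = 0.000641). That of miR-99b moved the other way in both (-0.25, adjusted p = 0.362, and 0.61, adjusted p = 0.0816). Differences between these precursors were not tested.

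**Figure D3:**
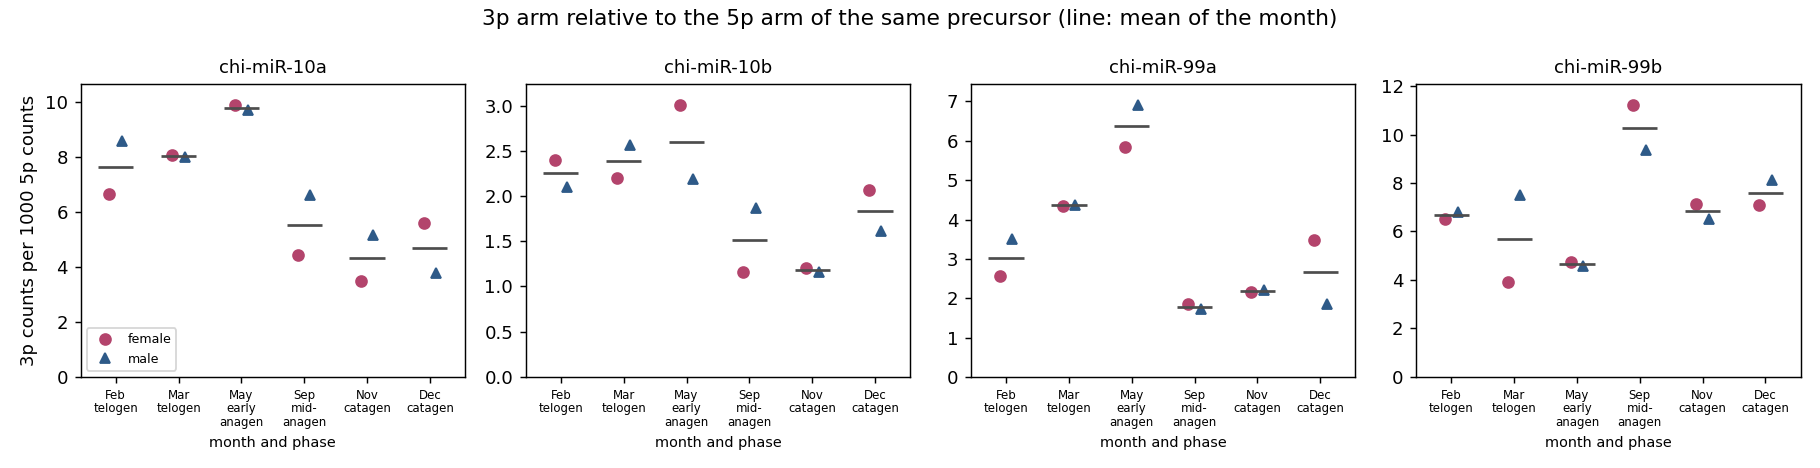
Counts of the 3p arm per 1000 counts of the 5p arm (y axes, linear from 0 with a scale for each panel) by month and phase (x axes) for miR-10a, miR-10b and the related miR-99a and miR-99b, with 1 female and 1 male library per month and a line at each month's mean. MiR-10a ran from 9.70 to 9.88 in May and from 3.50 to 5.58 in catagen; miR-99b had its highest values, 9.37 and 11.2, in September.

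The 5p arms of miR-10a and miR-10b are nearly identical in sequence, and the rule by which the authors assigned reads that match both is not given in the sources used here. The ratio between them can be set by that rule and is therefore uncertain. MiR-10b-5p had 4.12 to 7.07 times the counts of miR-10a-5p, and miR-10a-5p made up 15.6 ± 2.19% of both (n = 12), from 12.4% in the male library of December to 19.5% in the female library of November. By phase the share was 14.5 ± 1.51% in telogen (n = 4), 17.6 and 14.5% in May, 16.8 and 14.1% in September and 16.6 ± 3.07% in catagen (n = 4). Exact two-sided permutation tests on the log2 ratio did not pass between telogen and catagen (0.22 higher in catagen, p = 0.314, smallest possible p = 0.0286, n = 4 and 4) or between the first and the last 3 months sampled in the year (0.13 higher in the latter, p = 0.383, n = 6 and 6), nor over the 4 phases (F = 0.534, exact permutation p = 0.674). Adjusted over these 3 tests, the p-values were 0.575, 0.575 and 0.674. The libraries of a month differed by as much as the phases, such as 12.4% (male) against 18.0% (female) in December, but they also differ in sex. The female share was below the male one in February (13.4 and 14.3%) and March (13.6 and 16.7%), and above it in all other months. The permutation tests did not take sex into account, and a dependence of the ratio on sex was not tested.

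**Figure D4:**
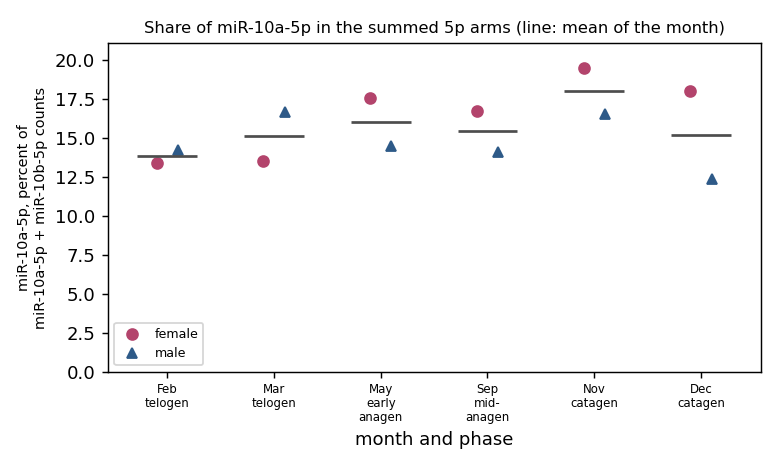
Counts of miR-10a-5p as a percentage of the summed counts of miR-10a-5p and miR-10b-5p (y axis, linear from 0) by month and phase (x axis), with 1 female and 1 male library per month and a line at each month's mean. The share ran from 12.4 to 19.5% and the phases overlap.

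The sexes were set against each other in an edgeR fit that also held the month. None of the 5 members was called, nor was any of the 300 miRNAs (0%; 34 had an unadjusted p under 0.05, and DESeq2 also called 0 of all). The log2 fold changes from female to male lay between -0.24 and 0.12. The lowest p was that of miR-10a-5p, 1.18-fold lower in males (SE 0.10 on the log2 scale, adjusted p = 0.407), with a lower level in the male library in 5 of 6 months.

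As a description over the 12 libraries, which share months and scaling, log2 TMM-normalized CPM of miR-10b-5p and miR-10a-5p had a Pearson r of 0.80, and miR-196a had one of 0.73 with miR-10a-5p and 0.64 with miR-10b-5p. Against their own 3p arms the 5p arms had an r of -0.15 (miR-10b) and 0.11 (miR-10a). The miRNAs with the most similar course to miR-10b-5p were miR-3432-5p (0.85), novel_131 (0.85) and miR-140-3p (0.85), the last known from cartilage. For miR-10a-5p they were miR-145-5p (0.89), a smooth muscle and mesenchymal miRNA, miR-7-5p (0.87) and miR-27b-5p (0.84). MiR-10b-3p was most similar to miR-126-5p (0.83), miR-490 (0.82) and let-7i-3p (0.77), and miR-10a-3p to novel_157 (0.81), miR-125a-5p (0.79) and miR-130b-3p (0.71). Of the endothelial markers, miR-126-5p is the less abundant arm (mean 485.5 TPM), and miR-126-3p (mean 9692 TPM) was not among the 3 most similar to miR-10b-3p. For miR-196a they were miR-7-5p (0.80), miR-23b-5p (0.78) and miR-361-3p (0.77).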

How the data were processed

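SHF small RNA libraries of 12 goat samples (6 months, female and male) were analysed. After adapter trimming, the authors aligned reads to goat assembly CHIR_2.0. MiREvo and mirDeep2 served to identify miRNAs, and Bowtie 0.12.9 to quantify them. A raw count and a TPM per miRNA and library were deposited, and recomputing TPM from count and library total left differences of at most 0.005. No library was taken as a repeat of another, since counts of the female and the male library of a month gave a chi-square of 65.2 to 635 times its degrees of freedom.

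Tests on counts used edgeR 4.0.16 in R 4.3.3 (TMM, glmQLFit, glmQLFTest, 1 fit of 12 libraries with 4 groups) for miRNAs with more than 5 CPM in at least 2 libraries. Calls needed an adjusted p under 0.05 and 2-fold. Arm ratios were tested with limma 3.58.1 for precursors with a mean count of at least 10 in each arm, and the ratio of miR-10a-5p to miR-10b-5p by exact permutation (numpy 2.4.6, checked against scipy 1.17.1). Log2 levels used a prior count of 1. Alternatives were DESeq2 1.42.0, RLE, library totals, no filter, sex as a term, a fit restricted to the compared groups, other count limits for arms, a percentage scale for the paralog share, and each library left out. Tests were checked on simulated data holding known 4-fold changes. For the contrast of May with September, 91 of 99 changed miRNAs among 289 were recovered from simulated counts and 3 of 190 unchanged ones called. Simulated rises and falls were balanced and libraries had no difference in composition. The check therefore does not cover the dependence on scaling, nor changes below 4-fold. For arm ratios, log2 ratios with normal noise were simulated in place of counts, so low 3p counts were not modelled. Of these, 20 of 20 among 87 precursors were recovered, with 1 of 67 unchanged ones called.

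Depth was 3135292 to 5788032 counts per library, so the number of libraries limits precision more than counting does for the 5p arms. Named miRNAs are those found by the name rule, the related miR-99 and miR-100 arms, and the 3 miRNAs most correlated with each member. The members and lists were chosen with earlier results of these data known. No sequence or coordinate is printed.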

Additional observations from a re-analysis of the deposited data

Results flagged for a closer look

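No level, arm ratio or paralog share of the HOX locus miRNAs met the limits for a closer look. The highest and the lowest library of telogen and of catagen (4 libraries each) were set against Dixon's 95% critical value for 4 samples in 16 sets of values, and 0 exceeded it; chance alone would give about 1 in 20. The change from catagen to telogen of the 5 members was also compared between sexes with edgeR, and the lowest adjusted p was 0.129, for miR-10b-5p (unadjusted p = 0.00871), with a log2 fold change of -0.88 in male and -0.10 in female libraries, a difference of -0.78.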

How the results depend on the processing

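Of the 241 values recomputed under other settings of the analysis, 224 kept their direction and their side of the threshold, as did 522 of the 552 with 1 library left out. For phase changes of single members this threshold included the 2-fold limit, which few values reached, so an adjusted p could cross 0.05 unrecorded. MiR-10b-5p from catagen to telogen (adjusted p = 0.045) was thus counted as kept at 0.113 with DESeq2 and 0.483 with library totals. These counts therefore overstate how stable the p-values were. Library totals gave 1 called member from May to September and 1 from May to catagen (miR-10a-3p in both). They also reversed the sign of uncalled log2 fold changes, to -0.12 (miR-10b-5p) and -0.16 (miR-10a-5p) from May to September, to -0.15 (miR-10b-5p), -0.071 (miR-10a-5p) and -0.078 (miR-196a) from May to catagen, and to -0.26 for miR-10a-3p from telogen to September, where RLE and DESeq2 both gave -0.027. From telogen to May, 7 miRNAs were called with edgeR, 12 with DESeq2, and 4 with library totals (2 higher and 2 lower, against 1 and 6).

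With 1 library left out, uncalled log2 fold changes crossed 0 for miR-10b-5p from telogen to May (-0.15 to 0.42) and from May to September (-0.029 to 0.61), for miR-196a from telogen to May (-0.11 to 0.50), for miR-10b-3p from telogen to September (-0.43 to 0.060), and for miR-10a-3p from catagen to telogen (-0.12 to 0.22) and from telogen to September (-0.041 to 0.19). Where only 1 library of May or September was left, it was assumed to vary like the other groups.

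The arm ratio of miR-10b was called from May to September with 5 counts added to each arm (-0.79) and with a mean count of at least 100 (-0.80), and from telogen to September with the latter (-0.65). With 1 library left out it ran from -0.075 to 0.38 from telogen to May, -1.14 to -0.46 from May to September, -0.34 to 0.35 from September to catagen, 0.54 to 0.81 from catagen to telogen, -0.99 to -0.31 from telogen to September and -1.02 to -0.57 from May to catagen. That of miR-10a ran from -1.13 to -0.56 from May to September and from -0.81 to -0.24 from telogen to September. The paralog ratio kept its direction and stayed above a p of 0.05 in all its alternatives. For the 3p arms and miR-196a, the counts of 42 to 254 per library also limit what could be detected.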
